A study of Mus musculus with 7 samples.

Results

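The genes described here are 36 immediate-early and heat-shock genes, chosen by symbol because they are known to respond quickly to growth signals, cytokines, tissue handling and protein damage. All 36 were found among the 32285 genes of the deposited count files. By role they are 9 AP-1 and related basic leucine zipper (bZIP) factors, 9 factors of the EGR, NR4A and KLF families, 12 other early-response and feedback genes, and 6 heat-shock genes. The first 30 are called immediate-early genes below.

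The genes were followed in 7 single-cell RNA libraries of whole brain tumours. The tumours were grown in C57BL/6 mice of 7 to 10 weeks from NSCG glioma cells, which carry EGFRvIII and mCherry and are stated to lack Arf/Ink4a, and were taken on day 14. Untreated mice (UT) gave 1 library. IgG mice received 10 mg/kg of the isotype control IgG2b (2 libraries), with the gavage diluent where they served as controls of the BPI mice. BP mice were given 5 mg/kg of B20, which blocks VEGF, and 10 mg/kg of anti-PD-L1 (2 libraries). BPI mice had both of these and a daily gavage of 10 mg/kg IPI-145, which inhibits the delta and gamma forms of PI3K (1 library). CD40 mice were dosed 2 times with 100 µg of an antibody that activates CD40, and the labels do not settle whether a dendritic cell vaccine was given as well (1 library). All hosts had an intact immune system, each library pools the tumours of 2 or more mice, and every tumour was digested with collagenases for 30 min at 37 °C before cells were captured. A library is therefore 1 replicate and the spread between mice is not seen. Because all 7 libraries share the warm digestion, its part in the levels cannot be told apart from that of the tumour.

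Immediate-early genes are transcribed without new protein synthesis once kinases activate factors already bound near their promoters. FOS and JUN proteins pair to form AP-1, and EGR and NR4A proteins are transcription factors that carry the signal on. DUSP and ZFP36 proteins switch it off again by removing phosphates from MAP kinases or by destroying messenger RNA. Heat-shock genes are driven by HSF1 when unfolded protein builds up, and Hspa1a and Hspa1b are the inducible HSP70 genes. Microglia, the resident macrophages of the brain, are known to switch immediate-early genes on during enzymatic dissociation at body temperature.

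Total depth was 68997476 to 186793886 UMIs (unique molecular identifiers) per library, and 48588 cells remained after filtering. Cells were grouped into classes from marker genes, and a class carries the suffix "-like". Microglia-like cells had 8 of 8 of their markers at a mean of 5 CPM (UMIs of a gene relative to all UMIs of the class in a library, on the CPM scale) or more, monocyte/macrophage-like cells 11 of 11, T-like cells 10 of 10 and tumour-like cells 10 of 12. Any 2 libraries shared at most 27 cell barcodes. By library number, BPI follows BP replicate 2 and IgG replicate 1 without a gap, IgG replicate 2 follows CD40, and neither BP replicate 1 nor UT has a neighbour. Tumour-like cells divided the same way. IgG replicate 1, BP replicate 2 and BPI had 95.5% to 97.0% of their tumour-like cells in 4 of the 13 tumour-like clusters, which held at most 0.365% of those of any other library. The naming of these clusters depended on the doublet filter. With no doublets removed, 109, 175 and 150 cells of the 3 libraries were named tumour-like, against 4472, 4123 and 4218 with them removed, and most of the others stayed unnamed. Inside the consecutive libraries 1 library stands against 1, so that treatment and preparation cannot be told apart there.

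The 250 bases upstream of the RefSeq start (GRCm38.p6) are shown for 6 members on which the results turn. Atf3 (chr1:191183334-191183583, minus strand) had the largest fitted BP difference of all members in tumour-like cells. Fos (chr12:85473640-85473889, plus strand), Jun (chr4:95052223-95052472, minus strand) and Btg2 (chr1:134079156-134079405, minus strand) were among the most abundant members in microglia-like cells. Hspa1a (chr17:34972157-34972406, minus strand) and Hspa1b (chr17:34959239-34959488, minus strand) are shown because they are near copies. Capitals mark matches to 5 motifs searched on both strands: the cyclic AMP response element TGACGTCA, the AP-1 site TGANTCA, the heat-shock element GAANNTTC, the CArG box and TATAAA.
Atf3: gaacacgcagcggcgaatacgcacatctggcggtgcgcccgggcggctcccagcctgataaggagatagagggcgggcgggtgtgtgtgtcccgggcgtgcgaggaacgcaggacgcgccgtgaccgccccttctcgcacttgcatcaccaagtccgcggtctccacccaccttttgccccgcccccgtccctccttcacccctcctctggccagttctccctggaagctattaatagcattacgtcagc
Fos: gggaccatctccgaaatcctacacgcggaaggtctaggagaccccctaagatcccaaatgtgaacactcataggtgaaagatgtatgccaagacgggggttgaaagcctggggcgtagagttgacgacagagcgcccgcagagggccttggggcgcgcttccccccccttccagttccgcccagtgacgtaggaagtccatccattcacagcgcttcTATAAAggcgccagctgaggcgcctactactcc
Jun: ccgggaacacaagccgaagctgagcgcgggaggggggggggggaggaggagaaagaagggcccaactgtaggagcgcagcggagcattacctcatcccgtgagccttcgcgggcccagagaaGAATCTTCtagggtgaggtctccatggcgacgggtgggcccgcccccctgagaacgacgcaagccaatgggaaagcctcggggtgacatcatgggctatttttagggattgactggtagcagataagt
Btg2: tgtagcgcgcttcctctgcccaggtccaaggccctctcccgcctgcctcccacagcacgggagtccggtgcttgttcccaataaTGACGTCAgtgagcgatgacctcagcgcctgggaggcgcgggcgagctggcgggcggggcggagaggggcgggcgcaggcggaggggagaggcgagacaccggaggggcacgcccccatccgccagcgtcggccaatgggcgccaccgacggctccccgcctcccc
Hspa1a: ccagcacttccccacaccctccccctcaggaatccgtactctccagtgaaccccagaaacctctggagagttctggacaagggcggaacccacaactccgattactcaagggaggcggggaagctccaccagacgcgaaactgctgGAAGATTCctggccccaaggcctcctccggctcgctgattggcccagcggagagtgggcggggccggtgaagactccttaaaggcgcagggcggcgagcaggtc
Hspa1b: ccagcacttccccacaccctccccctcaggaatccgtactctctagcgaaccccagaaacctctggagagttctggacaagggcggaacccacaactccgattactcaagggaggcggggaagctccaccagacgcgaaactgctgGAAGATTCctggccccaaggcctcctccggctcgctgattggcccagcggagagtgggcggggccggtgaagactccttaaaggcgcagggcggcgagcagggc
The capitals mark the TATAAA of Fos at base -33 from the start, a heat-shock element of Jun at -128, the cyclic AMP response element of Btg2 at -166, and a heat-shock element at -104 in both Hspa1a and Hspa1b. The Atf3 window held no match. The Hspa1a and Hspa1b windows, which lie upstream of the transcribed parts, were identical at 247 of 250 bases. How the counting treated reads that match both genes was not tested, so the separate levels of both genes are uncertain. Among the 29 members with an entry in the RefSeq table, the heat-shock element was found in 4 (Fosl2, Hspa1a, Hspa1b and Jun), the cyclic AMP response element in 3 (Btg2, Dusp1 and Maff), the CArG box in 3 (Dusp5, Egr2 and Zfp36), TATAAA in 4 (Fos, Gadd45b, Gadd45g and Nr4a2) and the AP-1 site in 0. Of all 32851 windows of this length, 6.69% held the heat-shock element, 1.55% the cyclic AMP response element, 1.47% the CArG box, 12.4% TATAAA and 6.75% the AP-1 site.

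The members differed first of all between cell classes. The summed level of the immediate-early genes in microglia-like cells was 4035 CPM in UT, 13592 and 11946 in IgG, 3945 and 31842 in BP, 23508 in BPI and 13644 in CD40. BP replicate 2 was the highest library and BP replicate 1 the lowest, so that the BP libraries lay on either side of all others. In tumour-like cells the sum was 3316 CPM in UT, 3606 and 1905 in IgG, 2864 and 4964 in BP, 5696 in BPI and 1985 in CD40, with BPI and BP replicate 2 highest. The microglia-like level was 1.22 to 6.88 times the tumour-like level of the same library, and the ratio was lowest in UT (1.22) and BP replicate 1 (1.38). Monocyte/macrophage-like cells had 3150.1 CPM in UT, 5057 and 3249 in IgG, 5226 and 8044 in BP, 9337 in BPI and 4659 in CD40. T-like cells had 2736 and 4113 CPM in IgG, and each other library lay between these values.

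Of the 36 members, 23 had their highest level most often in microglia-like cells, among the 6 classes with enough cells. Maff and Dusp1, which were highest as often in monocyte/macrophage-like cells, are counted here. Egr1, Egr2, Egr3 and Ier5 did so in all 7 libraries. Fosl1 and Hsp90aa1 were highest in tumour-like cells in all 7 libraries, and Klf10 and Gadd45g in 4. Fosl2, Nr4a2 and Dusp5 were highest in NK-like cells in 6 libraries and Nr4a3 in 4. With fewer than 20 cells, NK-like cells were not ranked in IgG replicate 2 (16 cells). The same held for endothelial-like cells in IgG replicate 1 and BP replicate 2 (13 and 8 cells). Nr4a1, Ier3 and Hspa8 were most often highest in monocyte/macrophage-like cells, Hsph1 in T-like cells and Klf4, a factor of endothelium and myeloid cells, in endothelial-like cells. The plot of all members by class and library shows these patterns.

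**Figure D1:**
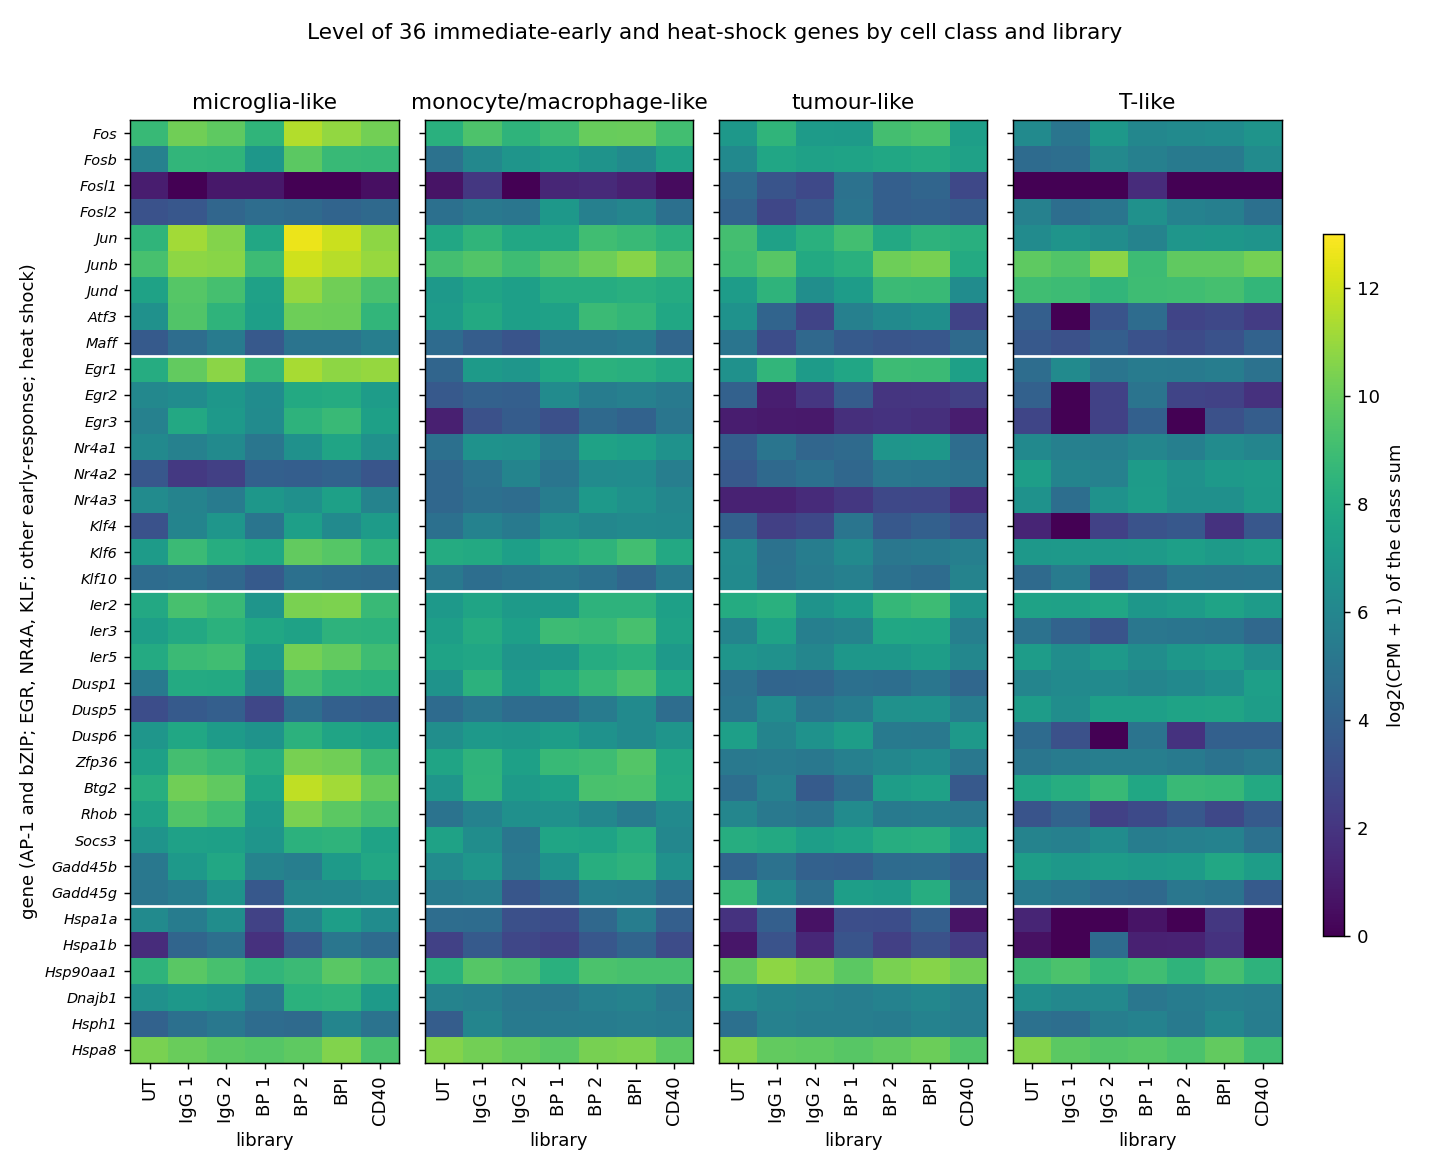
Level of the 36 members in 4 cell classes, as log2(CPM + 1) of the summed UMIs of a class in a library; rows are genes in the order of their roles and columns are libraries. The brightest square is Jun in microglia-like cells of BP replicate 2 (6199.5 CPM), and the microglia-like columns of UT and BP replicate 1 are darker than those of the other 5 libraries for most immediate-early genes.

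**Figure D2:**
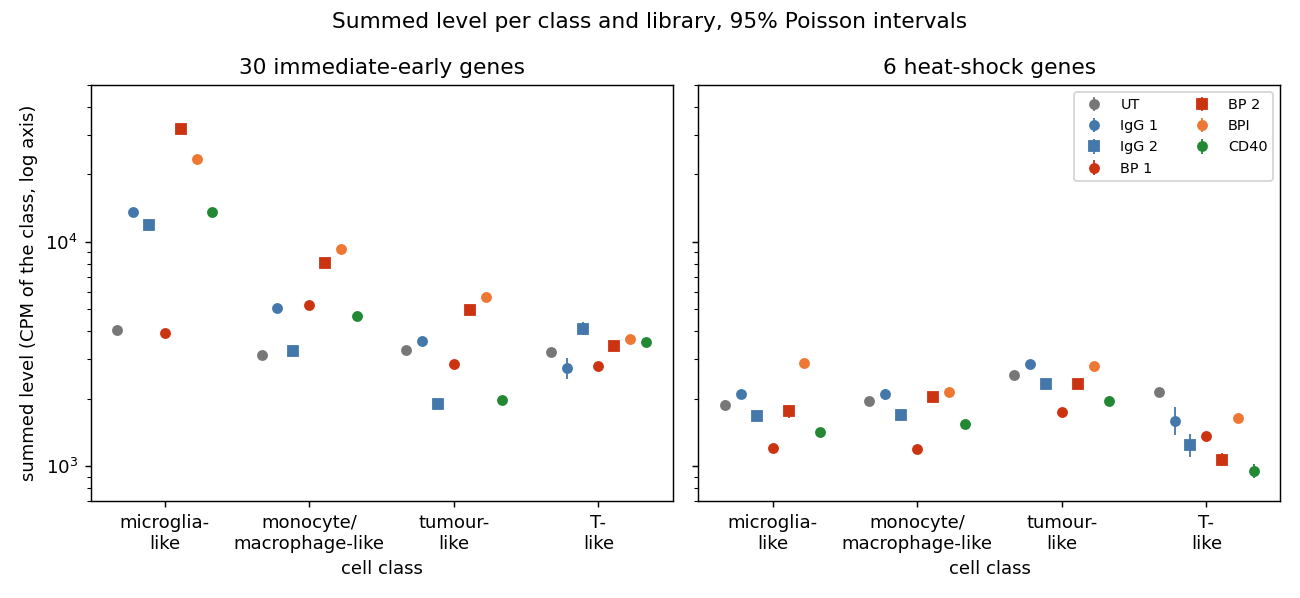
Summed level of the 30 immediate-early and of the 6 heat-shock genes by class and library (CPM, log axis), with 95% Poisson intervals that cover counting error only and are mostly smaller than the points. The immediate-early sums of microglia-like cells run from 3945 to 31842 CPM, while the heat-shock sums stay between 957 and 2886 CPM in all 4 classes.

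The microglia-like class was not alike in all libraries. It consisted of 2 clusters. Cluster 16 held 257 of 260 microglia-like cells of BP replicate 1 and 85.4% of the 151 of UT, and Cd74, the invariant chain of MHC class II, reached 19676 CPM in it in UT and 14269 CPM in BP replicate 1. Cluster 17 held 87.8% to 97.5% of the microglia-like cells of the other 5 libraries. Within cluster 17 the immediate-early sum was 14721 and 12199 CPM in IgG, 32833 CPM in BP replicate 2, 25296 CPM in BPI and 13791 CPM in CD40, and the 22 cells of UT had 5417 CPM. Within cluster 16 it was 3936 CPM in BP replicate 1, 3516 CPM in UT, 1689.6 CPM in IgG replicate 2 (33 cells), 4881 CPM in BPI (26 cells) and 1087 CPM in CD40 (22 cells). In each of the 4 libraries with 20 or more cells in both, cluster 17 was the higher one. Both clusters had the homeostatic microglia gene Tmem119, at 308 CPM in cluster 16 of BP replicate 1 and 549 and 674 CPM in cluster 17 of the IgG libraries. Values of BP replicate 1 and UT in this class therefore come mostly from another cluster than those of the remaining libraries. The microglia-like cells of BP replicate 1 also had a median of 12813 UMIs and 4.75% mitochondrial UMIs, against 2742 to 7990 UMIs and 1.56% to 2.08% in the other 6 libraries, and the part of this in the result was not tested. As 17 of the 36 members were among the variable genes used for clustering, the clusters are not independent of the members. With the members left out of the clustering, 1 cluster held 56.4% of the 55 microglia-like cells of UT and all but 8 of 218 in BP replicate 1 lay outside it, while it held 99.0% to 100% in the other 5 libraries. In it the immediate-early sum was 15122 and 12313 CPM in IgG, 32676 CPM in BP replicate 2 and 24723 CPM in BPI, and BP replicate 1 had 2894 and 6772 CPM in the 2 clusters that held most of its cells.

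Monocyte/macrophage-like cells were also split, with no such difference in level. BP replicate 1 had 1648 of its 1806 cells of this class in cluster 11 and 158 in cluster 9, which held 99.1% to 100% of the class in the other libraries. Its immediate-early sum was 5227 CPM in cluster 11 and 5219 CPM in cluster 9.

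**Figure D3:**
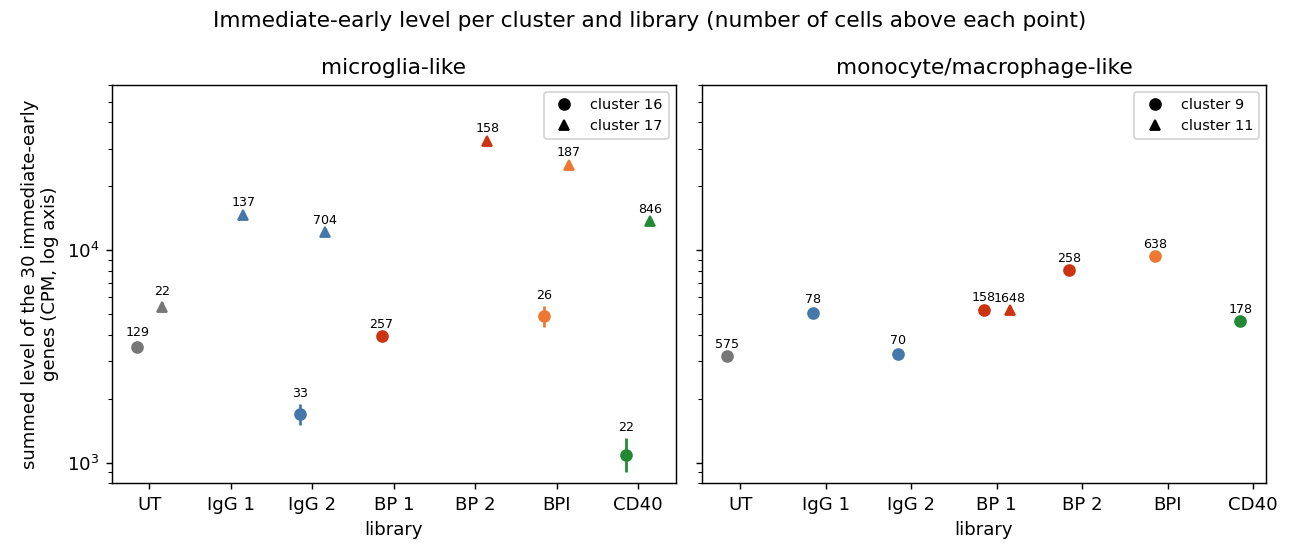
Summed level of the 30 immediate-early genes (CPM, log axis) in each cluster of the microglia-like and monocyte/macrophage-like classes, by library, for clusters with at least 20 cells of the library; bars are 95% Poisson intervals and the number above a point is its cells. Of the microglia-like clusters BP replicate 1 appears only in cluster 16, at 3936 CPM, and BP replicate 2 is highest in cluster 17, at 32833 CPM.

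The same was seen cell by cell. Each cell was thinned to 1000 UMIs, so that depth did not differ. The median count of immediate-early UMIs in a microglia-like cell was then 14 and 15 in IgG, 3 and 34 in BP, 23 in BPI, 16.5 in CD40 and 1 in UT. Cells with 10 or more such UMIs made up 63.9% and 67.3% in IgG, 12.7% and 88.5% in BP, 80.8% in BPI, 72.9% in CD40 and 11.3% in UT. In the IgG, BP replicate 2, BPI and CD40 libraries most microglia-like cells thus carried 10 or more. The UT values rest on 151 cells, while clusterings under other settings named only 46 to 55 cells of UT microglia-like. In tumour-like cells that share was 4% and 0.763% in IgG, 1.88% and 9.43% in BP, 15% in BPI, 0.702% in CD40 and 4% in UT, again with BPI and BP replicate 2 highest. The median T-like cell had 2 or 3 in all 7 libraries.

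**Figure D4:**
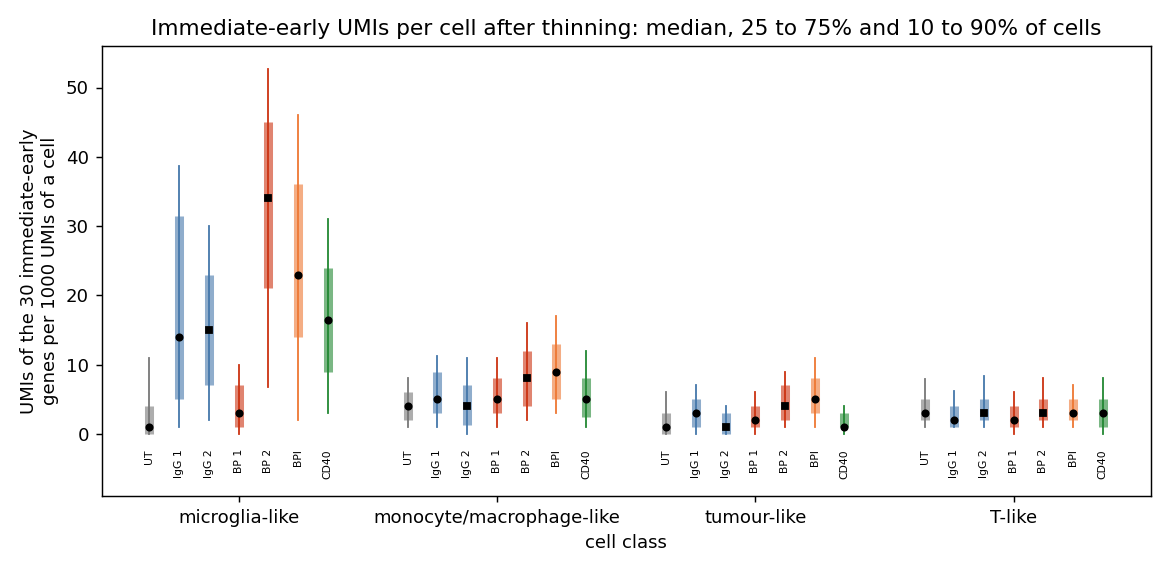
UMIs of the 30 immediate-early genes per cell after thinning each cell to 1000 UMIs, by class and library; points are medians, thick bars the 25 to 75% and thin lines the 10 to 90% range of cells. Medians of microglia-like cells run from 1 in UT to 34 in BP replicate 2, and those of T-like cells are 2 or 3.

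Among the AP-1 and related factors, Atf3 is a stress-induced bZIP factor. In tumour-like cells its level was 96.6 CPM in UT, 17.1 and 5.34 in IgG, 49.0 and 72.5 in BP, 87.2 in BPI and 5.16 in CD40. Both BP libraries, BPI and UT lay above both IgG libraries, and CD40 lay just below IgG replicate 2. The BP mean was 60.8 CPM ± 16.6 and the IgG mean 11.2 CPM ± 8.34 (SD, n = 2 each). The fitted BP difference on the log2 scale was 2.41 ± 0.69 (SE; edgeR, adjusted p 0.9999), and the BPI difference 3.13 ± 0.78 (SE; edgeR, adjusted p 1). In a fit that set the 3 consecutive libraries against all others as a block, which leaves 1 residual degree of freedom, the BP difference was 2.62 and the BPI difference 2.72. That Atf3 was higher in BP replicate 2 than in IgG replicate 1 was known when the genes were chosen, so these values are a description and no p of that fit is given.

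After thinning, an Atf3 UMI was found in 1.36% and 0.315% of tumour-like cells in IgG, 4.38% and 6.21% in BP, 7.47% in BPI, 0.306% in CD40 and 5.29% in UT. Unthinned, the shares were 13.5% and 5.16% in IgG and 39.3% and 37.4% in BP. T-like cells, which had little Atf3, gave 1.62% and 0.439% in BP after thinning, and 0 of 39 and 0 of 57 cells in IgG, which allow shares of up to 9.03% and 6.27% (exact binomial limit, counting error only). Their median depth was 2469 and 3498 UMIs in IgG and 6089 and 2881.5 in BP, against 15768.5 and 18773.5 in IgG and 20929 and 13212 in BP in tumour-like cells. Free RNA, read from barcodes with 10 to 100 UMIs, held 44.9 and 24.1 CPM of Atf3 in IgG and 101 and 78.1 CPM in BP, and so was higher in the BP libraries too. With free RNA subtracted, the fitted BP difference was 2.66.

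Fos in tumour-like cells was at 119.5 CPM in UT, 359 and 139 in IgG, 133 and 554 in BP, 635 in BPI and 156 in CD40. Its groups overlapped, and IgG replicate 1, BP replicate 2 and BPI were the highest. Junb was at 783, 1111 and 1299.5 CPM in those 3 libraries and 237 to 492 CPM in the other 4, and Jund at 349, 464 and 454 CPM against 79.9 to 145 CPM. Jun was highest elsewhere, at 551 CPM in UT and 529 CPM in BP replicate 1. Fos, Junb and Jund, which encode AP-1 subunits, were thus higher in the 3 consecutive libraries, the IgG one included, than in any other. Fosl1 was at 22.3 CPM in UT, 9.47 and 6.31 in IgG, 28.5 and 14.5 in BP, 18.2 in BPI and 6.05 in CD40. Fosl2 was at 16.5 CPM in UT, 5.76 and 10.6 in IgG, 30.9 and 14.1 in BP, 15.4 in BPI and 12.5 in CD40. Both were low, and their BP and IgG groups did not overlap. UT lay above both IgG libraries for Fosl1 and Fosl2, and CD40 did for Fosl2. Fosb ranged over 70.7 to 245 CPM and Maff, a small MAF factor, over 7.47 to 31.7 CPM.

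In microglia-like cells Jun was at 367 CPM in UT, 2359 and 1562 in IgG, 219 and 6199.5 in BP, 4007 in BPI and 1753 in CD40. The IgG libraries lay between the BP libraries. The fitted BP difference was 0.72 ± 1.26 (SE; edgeR, adjusted p 0.994), and without BP replicate 2 it was -3.08. Fos was at 436 CPM in UT, 1147 and 883 in IgG, 361 and 2916 in BP, 1869 in BPI and 1190.4 in CD40, with a BP difference of 0.70 ± 0.90 (SE; edgeR, adjusted p 0.994) and of -1.41 without BP replicate 2. BP is then 1 library, whose spread is taken from the other groups and whose microglia-like cells lie in the other cluster, so neither value tests the treatment. For both genes 1 library decided the direction, and the Jun difference was also below 0 in the fits with a block of libraries or of replicate numbers (-0.70 and -0.66). Atf3 in this class was at 93.8 CPM in UT, 713 and 344 in IgG, 161 and 1139 in BP, 1078 in BPI and 375 in CD40.

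In T-like cells Junb was the most abundant AP-1 gene in 6 of the 7 libraries, at 877 CPM in UT, 713 and 1726 in IgG, 485 and 901 in BP, 891 in BPI and 1228 in CD40. The groups overlapped, and the fitted BP difference was -0.95 ± 0.47 (SE; edgeR, adjusted p 0.611). Without BP replicate 2 it was -1.73, where edgeR called Junb lower and 2.56% of all genes in either direction, with 1 BP library left. The T-like IgG values rest on 39 and 57 cells.

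Egr1 led the EGR, NR4A and KLF factors in microglia-like cells, at 264 CPM in UT, 952 and 1695 in IgG, 403 and 2484 in BP, 1757 in BPI and 1975 in CD40. Egr1 was also higher in tumour-like cells of the 3 consecutive libraries (379.5, 476 and 463 CPM) than in the other 4 (95.3 to 203 CPM). Egr2 and Egr3, further zinc finger factors of the family, had 66.1 to 254 CPM and 51.2 to 452 CPM in microglia-like cells, and 1.14 to 15.3 CPM and 0.865 to 2.75 CPM in tumour-like cells. The orphan nuclear receptor gene Nr4a1 in tumour-like cells was at 13.7 CPM in UT, 32.6 and 18.8 in IgG, 21.7 and 108 in BP, 119 in BPI and 23.7 in CD40, so that BP replicate 2 and BPI stood apart from the other 5. In microglia-like cells both BP libraries lay above both IgG libraries for Nr4a2, Nr4a3 and Fosl2. These are 3 of 35 members with a mean of at least 10 CPM, against 16.9% of all genes, and 5 of 35 lay below. Nr4a2 and Fosl2 rest on 3 and 9 UMIs in IgG replicate 1 and on 7 and 11 in BP replicate 2. Nr4a3 was at 76.8 CPM in UT, 54.3 and 41.3 in IgG, 118 and 90.8 in BP, 165 in BPI and 54.6 in CD40 there, with a BP difference of 1.18 ± 0.33 (SE; edgeR, adjusted p 0.955). Nr4a2 had 3.54 to 16.0 CPM. Klf4 in tumour-like cells was at 14.9 CPM in UT, 4.52 and 5.93 in IgG, 31.9 and 11.02 in BP, 14.9 in BPI and 8.68 in CD40. Its BP difference was 1.97 ± 0.51 (SE; edgeR, adjusted p 0.9999), and UT and CD40 lay above both IgG libraries too. Klf6 ranged over 139 to 929 CPM and Klf10 over 11.9 to 27.0 CPM in microglia-like cells.

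Among the other early-response genes, Btg2, an antiproliferative gene induced by p53 and growth signals, was at 278 CPM in UT, 1161 and 902 in IgG, 201 and 3405 in BP, 2330.1 in BPI and 979 in CD40 in microglia-like cells. In tumour-like cells it was at 24.998 CPM in UT, 51.0 and 12.5 in IgG, 24.2 and 148 in BP, 171 in BPI and 11.4 in CD40. BP replicate 2 and BPI were the highest in both classes. Gadd45g, a stress sensor that acts on p38 kinase signalling, was at 417 CPM in UT, 67.2 and 26.2 in IgG, 154 and 138 in BP, 269 in BPI and 21.4 in CD40 in tumour-like cells. Its BP and IgG groups did not overlap, UT was the highest library, and the BP difference was 1.59 ± 0.53 (SE; edgeR, adjusted p 0.9999).

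Among monocyte/macrophage-like cells Socs3, a feedback inhibitor of cytokine receptors, was at 181 CPM in UT, 82.6 and 33.9 in IgG, 202 and 184 in BP, 276 in BPI and 64.1 in CD40. Gadd45b, a relative of Gadd45g, was at 111 and 37.5 CPM in IgG, 98.8 and 279 in BP and 339.6 in BPI, with BP replicate 1 between the IgG libraries. Ier3, an early gene that affects cell survival, was at 256 and 159 CPM in IgG, 479 and 436 in BP and 591 in BPI, and Zfp36, which destroys cytokine messenger RNA, at 346 and 168 CPM in IgG, 429 and 506 in BP and 730.5 in BPI. For both of them the BP and BPI libraries lay above both IgG libraries. The phosphatase gene Dusp1 was at 247 and 240.3 CPM in IgG, 63.7 and 533 in BP and 352 in BPI in microglia-like cells. Dusp6, which encodes an ERK phosphatase, was lowest in tumour-like cells of BPI and BP replicate 2 (37.6 and 40.3 CPM, against 57.0 to 159.7 CPM). In microglia-like cells Ier2 ranged over 108 to 1407 CPM, Ier5 over 126 to 1259 CPM, Rhob, a small GTPase gene, over 132 to 1359.7 CPM and Dusp5 over 5.79 to 25.1 CPM, each with BP replicate 1 lowest.

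The heat-shock genes had sums of 1878 CPM in UT, 2094 and 1685 in IgG, 1203 and 1758 in BP, 2886 in BPI and 1426 in CD40 in microglia-like cells, which is 0.691 to 1.03 times the tumour-like level. BPI was the highest and BP replicate 1 the lowest. Hspa8, the constitutive HSC70 gene, had 614 to 1471 CPM in microglia-like and 690.5 to 1512 CPM in tumour-like cells. The inducible Hspa1a was low in tumour-like cells (0.543 to 14.5 CPM), and in microglia-like cells was at 73.6 CPM in UT, 43.7 and 81.5 in IgG, 5.00 and 57.9 in BP, 155 in BPI and 80.1 in CD40. Hspa1b had 2.13 to 33.6 CPM in microglia-like cells. Dnajb1, which encodes an HSP40 partner of HSP70, was at 119 and 103 CPM in IgG, 37.1 and 317 in BP and 352 in BPI there, and Hsph1, an HSP110 gene, ranged over 16.0 to 58.4 CPM. Hsp90aa1, the inducible HSP90 gene, had the lowest fitted BP difference of all members in tumour-like cells, -0.52 ± 0.47 (SE; edgeR, adjusted p 0.9999). Its level was 939.9 CPM in UT, 1767 and 1353 in IgG, 851 and 1320.1 in BP, 1585 in BPI and 1167 in CD40, and both BP libraries lay below both IgG libraries.

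The log2 ratio of the BP and IgG means of the summed immediate-early level was 0.51 in tumour-like cells with a between-replicate SD of 0.61, 0.49 (SD 1.51) in microglia-like cells, 0.68 (SD 0.45) in monocyte/macrophage-like cells and -0.13 (SD 0.33) in T-like cells. The monocyte/macrophage-like ratio was the only one larger than its spread. Microglia markers in that class summed to 1347 and 2802 CPM in IgG, 407 and 917 in BP and 590 in BPI. Endothelial markers there summed to 77.6 and 47.6 CPM in IgG, 581 and 126 in BP and 161 in BPI. The make-up of the class may thus differ between groups, and its part in the ratio was not tested. For the heat-shock sum the ratios were -0.34 (SD 0.26), -0.35 (SD 0.32), -0.23 (SD 0.41) and -0.22 (SD 0.25) in the same order, larger than the spread in tumour-like and microglia-like cells. Each SD takes in any difference between the consecutive libraries and the others. The tumour-like immediate-early sum was 3606 CPM in IgG replicate 1 and 4964 in BP replicate 2. It was 1905 CPM in IgG replicate 2 and 2864 in BP replicate 1, and the part of the library set was not tested.

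Across the members, edgeR's quasi-likelihood test called 0 in each of 16 comparisons (4 classes, each with BP, BPI, CD40 and UT against IgG) at an adjusted p under 0.05. Among all genes tested, 0% rose or fell for BP in tumour-like, microglia-like and monocyte/macrophage-like cells, and in T-like cells 0.698% rose and 0.153% fell. For BPI 0% rose or fell in tumour-like and microglia-like cells, 0.2% rose and 0% fell in monocyte/macrophage-like cells, and 0.513% rose and 0.0654% fell in T-like cells. For CD40 0.0654% rose and 0.0218% fell in T-like cells, and for UT 1.38% rose and 1.17% fell there. For UT 0.343% rose and 0.039% fell in monocyte/macrophage-like cells, and all other shares were 0%. At an unadjusted p under 0.05, members numbered 7 of 36 for BP in tumour-like cells, Atf3 with its known difference among them (2.02% of all genes tested), 4 of 35 in microglia-like (4.73%), 7 of 35 in monocyte/macrophage-like (8.16%) and 2 of 33 in T-like cells (7.77%). For BPI they numbered 9 of 36, again with Atf3 (1% of all genes tested), 4 of 35 (3.12%), 17 of 35 (11%) and 1 of 33 (6.79%) in the same order. DESeq2 called 0 for BP in each class, against 0.315% of all genes in tumour-like, 0.386% in microglia-like, 0.927% in monocyte/macrophage-like and 0.131% in T-like cells. All 4 comparisons of a class share the IgG libraries, and the single libraries are assumed to vary like IgG and BP.

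On the positive side for BP were 29 of 36 (50.2% of all genes) in tumour-like, 23 of 35 (46.9% of all genes) in microglia-like, 31 of 35 (52.7% of all genes) in monocyte/macrophage-like and 14 of 33 (52.8% of all genes) in T-like cells. For BPI the numbers were 33 of 36 (45.3% of all genes), 31 of 35 (44.1% of all genes), 32 of 35 (49.2% of all genes) and 24 of 33 (52.4% of all genes) in the same order. The median log2 difference of the members was 0.49, 0.30, 0.69 and -0.23 for BP and 1.03, 0.98, 1.53 and 0.32 for BPI. Over all genes the median lay between -0.09 and 0.05 in these 8 comparisons. BPI is 1 of the consecutive libraries, while IgG replicate 2 is not, so the BPI values mix treatment with library set. Against IgG replicate 1 alone, after 1 CPM was added, the median log2 ratio of BPI was 0.47, 0.70, 0.75 and 0.29 in the same order. That is for members with a mean of at least 10 CPM, and over all such genes it was -0.11, -0.19, -0.33 and 0.002. In monocyte/macrophage-like cells the largest BPI differences were those of Socs3, 2.80 ± 0.58 (SE; edgeR, adjusted p 0.124), and Gadd45b, 2.74 ± 0.81 (SE; edgeR, adjusted p 0.252). DESeq2 called 4 members higher for BPI (Klf6, Ier3, Socs3 and Gadd45b), against 1.46% of all genes. The edgeR fit with the consecutive libraries as a block called 6 higher for BP and the same 6 for BPI (Fosl2, Maff, Egr2, Nr4a3, Socs3 and Gadd45b), against 3.33% and 4.11% of genes. Without BP replicate 2, which leaves 1 BP library, edgeR called 4 higher for BP (3.93% of genes) and 21 for BPI (6.02%). The fit with the block leaves 1 residual degree of freedom and sets BP replicate 1 on the same side as IgG replicate 2 and CD40. In BP replicate 1, 91.3% of the cells of this class lie in cluster 11, while those of both IgG libraries all lie in cluster 9. The IgG values of this class rest on 78 and 70 cells. In microglia-like cells, leaving out BP replicate 2 led edgeR to call 19 members lower (4.1% of genes) and 2 higher (Nr4a2 and Nr4a3; 3.54%) in the remaining BP library, whose cells lie in the other cluster.

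**Figure D5:**
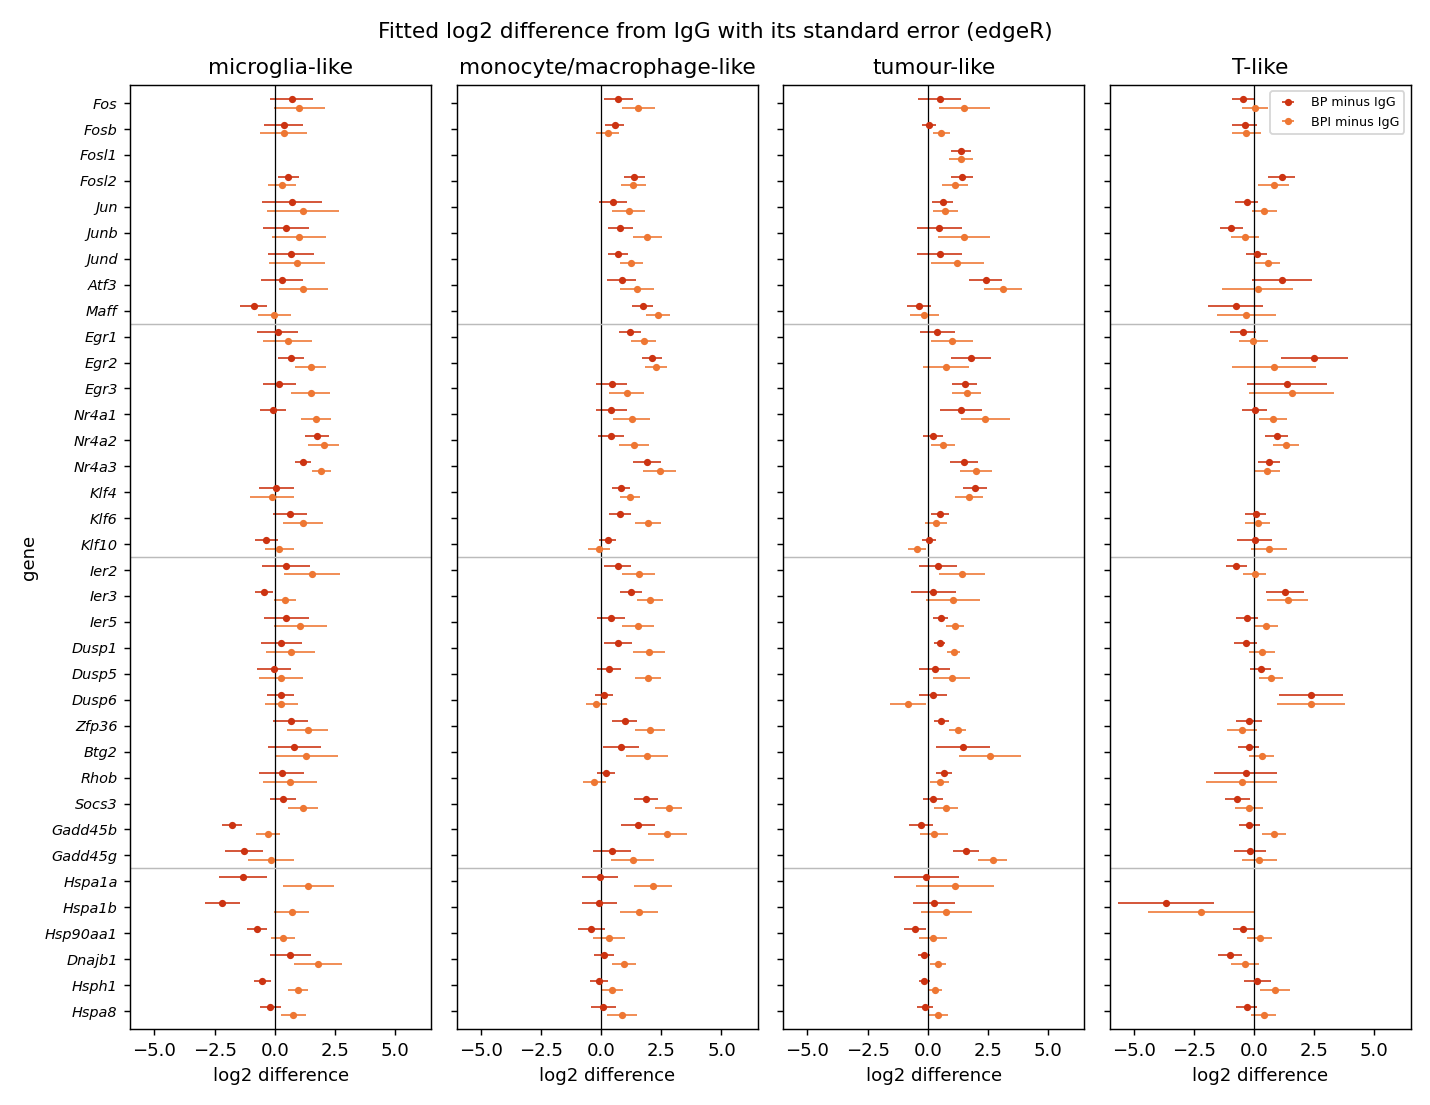
Fitted log2 difference from IgG of each member in 4 cell classes, for BP (red) and BPI (orange), with bars of 1 standard error from edgeR's quasi-likelihood fit; a gene with no point was not tested. In monocyte/macrophage-like cells 32 of 35 members lie above 0 for BPI, and no member in any panel passed an adjusted p of 0.05.

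Among members with a mean of at least 10 CPM, both BP libraries lay above both IgG libraries for 9 of 31 in tumour-like cells (Fosl1, Fosl2, Atf3, Klf4, Ier5, Dusp1, Zfp36, Rhob and Gadd45g), against 9.83% of all genes at that level, and below them for 1, Hsp90aa1 (11% of genes). In monocyte/macrophage-like cells they lay above for 12 of 34 (14.9% of genes) and below for 0 (20.8%). In microglia-like cells they lay above for 3 of 35 (16.9%) and below for 5 of 35 (17%), which are Ier3, Gadd45b, Hspa1b, Hsp90aa1 and Hsph1. In T-like cells they lay above for 5 of 28 (28.2%) and below for 3 of 28 (9.75%). These counts are a description. UT, which had no treatment, also lay above both IgG libraries for each of the 9 in tumour-like cells except Zfp36. Of the 9 in tumour-like cells, Fosl1, Fosl2 and Klf4 had IgG means under 10 CPM and so reached the level only through the libraries where they were high, as did Nr4a2 in microglia-like cells, and the BP replicate 2 level of Atf3 was known beforehand.

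Within the consecutive libraries, where there is 1 library a group and no test, BP replicate 2 was at least 1.5 times higher than IgG replicate 1 (after 1 CPM was added to both) for 9 of 31 members in tumour-like cells (Fos, Fosl2, Atf3, Nr4a1, Nr4a2, Klf4, Zfp36, Btg2 and Gadd45g), against 2.24% of all genes. The plain ratio, with nothing added, was 3.33 for Nr4a1 and 2.91 for Btg2. That of Atf3, 4.23, is the difference known when the genes were chosen, and Fosl2 and Klf4 were under 10 CPM in IgG replicate 1. BPI was that much higher for 15 of 31 (3.11% of genes), with plain ratios of 5.09 for Atf3 and 4.01 for Gadd45g. The Atf3 ratio uses the same IgG replicate 1 level as the known difference. In microglia-like cells the counts were 24 of 35 (18.3%) for BP replicate 2 and 22 of 35 (9.5%) for BPI, with plain ratios of 2.63 and 1.70 for Jun. In the monocyte/macrophage-like class the counts were 16 of 34 (9.64%) and 23 of 34 (11.8%), and in T-like cells 9 of 28 (26.9%) and 13 of 28 (26%). That much lower than IgG replicate 1 were 0 of 31 members in BP replicate 2 and 1 of 31, Dusp6, in BPI in tumour-like cells (0.557% and 2.45% of genes), 2 of 35 (Gadd45b and Hsp90aa1) and 0 of 35 in microglia-like cells (25.5% and 23.9%), 0 of 34 and 1 of 34, Dusp6, in monocyte/macrophage-like cells (17.3% and 34%), and 4 of 28 and 1 of 28 in T-like cells (21.1% and 23.9%). These counts take in members that were under 10 CPM in IgG replicate 1, at most 3 in any of them, and 1 library against 1 shows no spread. The mix of tumour-like clusters also differed. Cluster 21 held 7.27% of the tumour-like cells in IgG replicate 1, 26.5% in BP replicate 2 and 43.7% in BPI. Cluster 22 held 42.9%, 30.5% and 16.9% in the same order, and the part of this mix in the counts was not tested.

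CD40 stood close to IgG replicate 2, its neighbour in number, in tumour-like and microglia-like cells. It was at least 1.5 times higher for 0 of 31 members in tumour-like cells (0.525% of genes) and for 1 of 35, Nr4a2, in microglia-like cells (1.68%). Monocyte/macrophage-like cells of CD40 were higher for 14 of 34 (7.57%), among them Egr1 (226 against 115 CPM) and Egr2 (39.3 against 14.4 CPM). Among T-like cells it was higher for 5 of 28 (30.5%). That much lower than IgG replicate 2 were 0 of 31 members in tumour-like cells (0.343% of genes), 0 of 35 in microglia-like (1.05%), 0 of 34 in monocyte/macrophage-like (6.37%) and 3 of 28 in T-like cells (12.4%), the last being Btg2, Socs3 and Gadd45g. Of the members counted as higher, 1 in microglia-like, 2 in monocyte/macrophage-like and 3 in T-like cells were under 10 CPM in IgG replicate 2, so these counts are a description.

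BP replicate 2 and BPI, which differ in the labels by IPI-145, were compared in the same way. BP replicate 2 was at least 1.5 times higher than BPI for 0 of 31 members in tumour-like cells (0.236% of genes) and lower for 1 of 31, Gadd45g (1.14%). Microglia-like cells of BP replicate 2 were higher for 9 of 35 (23.5% of genes) and lower for 9 of 35 (15.3%). The counts were 2 of 34 higher (16.7%) and 4 of 34 lower (5.67%) in monocyte/macrophage-like cells, and 0 of 28 higher (9.68%) and 5 of 28 lower (7.69%) in T-like cells.

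UT had no neighbour. Its Egr1 level in monocyte/macrophage-like cells was 17.7 CPM, against 115 to 309 CPM in the other 6 libraries (UT minus IgG -2.45 ± 0.60, SE; edgeR, adjusted p 0.141), and DESeq2 called it lower (0.546% of genes). UT minus IgG for Atf3 in tumour-like cells was 3.11 ± 0.79 (SE; edgeR, adjusted p 0.347), and DESeq2 called Atf3, Egr2 and Gadd45g higher there (2.27% of genes). The Atf3 level of IgG replicate 1 was part of the difference known when the genes were chosen, so its UT values are a description. UT is 1 library, and its tumour-like class held 1077 to 4021 cells over the alternative groupings of cells. With no doublets removed, 1140 UT cells were named tumour-like, against 2478 with them removed, and 1588 were named astrocyte-like, against 13. Whether these are the same cells was not tested, so the naming of the UT tumour-like class is uncertain.

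Genes of the same pathways outside the members were read from 5 lists. Of 24 other immediate-early genes, 22 were tested in tumour-like and 21 in microglia-like cells, with 0 called for BP or BPI. Their median BP difference was 0.45 in tumour-like cells and -0.09 in microglia-like cells, and 0.75 in monocyte/macrophage-like cells. In tumour-like cells, 19 other chaperones and HSF1 targets had a median of -0.15, 13 genes of the integrated and endoplasmic reticulum stress response 0.68, 10 MAPK feedback genes 0.05 and 9 genes of oxidative and metal stress 0.53, with 0 called in each. The medians of the last 4 lists in the same order were -0.19, 0.09, -0.39 and -1.01 in microglia-like cells, -0.28, 0.31, 0.20 and 0.12 in monocyte/macrophage-like cells and -0.32, 0.56, 0.76 and 0.25 in T-like cells. In microglia-like cells, where the pair of BP libraries lies mostly in different clusters, 4 of 18, 7 of 13, 3 of 9 and 1 of 8 members tested were on the positive side. EdgeR called genes of these lists in T-like cells, the class in which it called 0.698% of all genes higher and 0.153% lower for BP against 0% in the other 3 classes. Xbp1, a factor of the unfolded protein response and of secretory cells, was at 16.4 and 18.5 CPM in IgG and 156 and 48.4 CPM in BP (2.31 ± 0.63, SE; edgeR, adjusted p 0.0433) and at 94.8 CPM in UT (2.34 ± 0.68, SE; edgeR, adjusted p 0.0358). The metallothionein gene Mt1 was at 32.8 and 9.23 CPM in IgG and 164 and 82.0 CPM in BP (2.55 ± 0.62, SE; edgeR, adjusted p 0.0166) and 92.8 CPM in UT (2.27 ± 0.68, SE; edgeR, adjusted p 0.0425). The IgG values rest on 2 and 4 UMIs of Xbp1 and on 4 and 2 UMIs of Mt1. For BP the Xbp1 call held in 7 of 15 alternatives that gave an adjusted p and the Mt1 call in 11 of 15, and for UT in 5 of 13 and 6 of 13. Both BP calls were lost with the replicate block (edgeR, adjusted p 0.518 and 0.393), without BP replicate 1 (0.867 and 0.166) and without IgG replicate 2 (0.547 and 0.723). Creb3l2, a bZIP factor of the endoplasmic reticulum, had 0 UMIs in both IgG libraries and 125 and 41.7 CPM in BP. UT had 44.3 CPM of it and BPI 33.4 CPM. It passed the low count filter only through the groups in which it was found, and its calls for BP, BPI and UT are given only as a description. In UT, Klf2, a factor of resting T cells, was at 70.6 CPM against 319 and 365 CPM in IgG (-2.36 ± 0.57, SE; edgeR, adjusted p 0.0057), with the call held in 10 of 13 alternatives and lost without IgG replicate 2 (edgeR, adjusted p 0.137), with free RNA subtracted (0.0567) and in DESeq2 (0.118). Txnip and Mcl1 were called lower as well, in 8 of 13 and 5 of 13 alternatives.

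Free RNA carried immediate-early transcripts in each library. Its estimated part of the summed immediate-early level was 0.598% to 6.69% in microglia-like cells, 1.39% to 7.88% in tumour-like cells, 3.17% to 9.56% in monocyte/macrophage-like cells and 2.16% to 23.8% in T-like cells, the last in IgG replicate 1. Of the heat-shock level it was 3.48% to 26.0%, 1.48% to 7.67%, 7.2% to 13.04% and 5.56% to 31.3% in the same order, highest in BP replicate 2 in microglia-like cells and in IgG replicate 1 in T-like cells. In tumour-like cells the microglia markers summed to 118 to 268 CPM, with 3 of 8 at a mean of 5 CPM or more, and were lowest in BP replicate 2, BPI and IgG replicate 1 (118.0, 128.7 and 129.2 CPM). Their part in the immediate-early levels was not tested.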

How the data were processed

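The deposited files hold raw UMI counts per gene and barcode, made by the authors with Cell Ranger 7.0.1 on mm10 per the submitters' processing notes, while the file headers name Cell Ranger 4. Cells were barcodes that reached 1000 UMIs and 500 genes with no more than 15% of UMIs from mitochondrial genes, and Scrublet marked the top 0.8% per 1000 cells as doublets, 3207 in all, which were removed. Cells were clustered with scanpy 1.11.5 (python 3.11.15) on 2000 variable genes, 30 principal components and 15 neighbours (Leiden, resolution 1), and clusters were named from marker lists. UMIs were summed per library and class and given as CPM. Classes with at least 20 cells in each library were tested with edgeR 4.0.16 (R 4.3.3; quasi-likelihood test, TMM scaling, low count filter, Benjamini-Hochberg over all genes tested, threshold 0.05). BP, BPI and CD40 were set against IgG in 1 fit of 6 libraries, and UT in a fit of all 7. A group with 1 library is assumed to vary like IgG and BP. Groups follow the labels, and pooled mice make p-values a measure of the spread between pools. IgG and BP each have 1 library inside and 1 outside the consecutive libraries, so this spread takes in any difference between the sets. DESeq2 1.42.0, other filters and scalings, blocks and left-out libraries were the alternatives.

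The members and lists were chosen with earlier results of these data known. Each member is accounted for. Values per library are given for members called, for the largest and smallest BP difference in tumour-like cells, for Atf3 and for the most abundant member of each role, and for up to 3 called genes of each pathway list. Other genes given per library were chosen after their values were seen. Same-numbered IgG and BP libraries did not deviate together (correlation -0.720 over 9328 genes in tumour-like cells), so the numbers do not pair them. Libraries held 68997476 to 186793886 UMIs, and a class tested held at least 39 cells of a library. Intervals cover counting error only.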

Additional observations from a re-analysis of the deposited data

Results flagged for a closer look

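Ier3, an early gene that affects cell survival, had BP and IgG values on opposite sides in different classes. The log2 ratio of the BP and IgG means was -0.46 in microglia-like cells, 1.14 in monocyte/macrophage-like cells and 1.37 in T-like cells. In each of these classes both BP libraries lay above, or both below, the pair of IgG libraries. Of all genes with a mean of at least 10 CPM, 17% lay below in microglia-like cells. In monocyte/macrophage-like and T-like cells 14.9% and 28.2% lay above. Most microglia-like cells of BP replicate 1 lie in another cluster than those of the IgG libraries. In T-like cells Ier3 rests on 2 UMIs in each IgG library (16.4 and 9.23 CPM), against 34.1 and 32.3 CPM in BP. Free RNA alone would give 39.7 CPM in IgG replicate 1 and 22.3 CPM in BP replicate 2 there, so that the first is at background and most of the other could be, and 3.51 CPM in IgG replicate 2 and 5.53 CPM in BP replicate 1. Dusp1, which encodes a MAP kinase phosphatase, had a ratio of 0.51 in tumour-like cells and -0.17 in T-like cells. Here too the groups did not overlap, as for 9.83% of all genes upwards in tumour-like and 9.75% downwards in T-like cells. The T-like values of Dusp1 were 73.7 and 73.9 CPM in IgG, from 9 and 16 UMIs, and 59.8 and 71.3 CPM in BP. A gap this small on so few UMIs shows no difference. The difference between classes was not tested for either gene, and the classes come from the same libraries.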

How the results depend on the processing

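No member was called by edgeR in the fits as described, and 289 values for whole classes under the alternatives stayed within 1.5 times (counts of calls) or 1 SD (ratios of sums), while 31 did not. The counts of member calls start from 0, and in tumour-like and microglia-like cells 0% of all genes were called. A count that stayed at 0 is therefore no measure of stability, and the 289 values include such counts. The percentage after a count is the share of all genes tested that the same fit called. In tumour-like cells Atf3 was the only member whose call for BP or BPI changed. It did so with the block of consecutive libraries and, for BP, with the crossed pairing. Its higher level in BP replicate 2 than in IgG replicate 1 was known beforehand, so this change is a description and tests nothing. The crossed pairing puts IgG replicate 1 with BP replicate 2 and IgG replicate 2 with BP replicate 1. It divides the IgG and BP libraries as the block of consecutive libraries does, so these fits are not separate evidence. For UT, DESeq2 called 3 (4.18%) and the data with no doublet removal 2 (1.37%), where the tumour-like class held 109, 175 and 150 cells of IgG replicate 1, BP replicate 2 and BPI and 1140 of UT, against 4472, 4123, 4218 and 2478, so that it compares largely other cells. UT also had 46 to 55 microglia-like cells in the other 4 clusterings, against 151. In microglia-like cells no low count filter gave 2 for BP (1.39%), 1 for BPI (0.576%) and 5 for UT (2.2%). In monocyte/macrophage-like cells it gave 4 (1.98%), 13 (2.86%) and 3 (3.03%), DESeq2 gave 4 for BPI (1.68%) and 1 for UT (1.72%), the block of consecutive libraries gave 6 for BP (5.58%) and 6 for BPI (4.87%), and the crossed pairing 6 for BP (5.74%). Leaving out 1 library gave 0 to 21 calls in microglia-like cells for BP, 0 to 10 for BPI and 0 to 14 for UT, the highest without BP replicate 2 (7.64%, 1.77% and 7.25%). In monocyte/macrophage-like cells it gave 0 to 4, 0 to 21 and 0 to 5, again highest without BP replicate 2 (6.51%, 7.42% and 9.48%), with as many for UT without BP replicate 1 (6.47%), and in T-like cells 0 to 1 for BP (Junb, lower, 2.56%, without BP replicate 2). A group left with 1 library is assumed to vary like the others. The summed immediate-early ratio in microglia-like cells ran from -1.69 to 1.32, and the heat-shock ratio in monocyte/macrophage-like cells from -0.658 to 0.107. The Jun difference in microglia-like cells was below 0 without BP replicate 2 (-3.08), with the replicate block (-0.66), the crossed pairing (-0.67) and the block of consecutive libraries (-0.70), and the Fos difference without BP replicate 2 (-1.41). Over the libraries left out in turn, Jun ran from -3.08 to 1.69 and Fos from -1.41 to 1.55. The replicate block called 0 members for BP in tumour-like (0%), microglia-like (0.0552%), monocyte/macrophage-like (0.642%) and T-like cells (0%). The cause of these changes was not tested, and the crossed pairing, the count of unnamed clusters as tumour-like and the restriction to 1 monocyte/macrophage-like cluster were chosen after seeing the data. The fit within the larger microglia-like cluster was not run, because BP replicate 1 has 3 cells in it. IgG values rest on 39 and 57 T-like and 78 and 70 monocyte/macrophage-like cells.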
